A study of Homo sapiens with 8 samples.

Results

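The genes described here encode 9 receptors of the lipoprotein and scavenger receptor families: OLR1, VLDLR, LRP1, LRP8, SCARB1, SCARB2, CD36, MSR1 and SORL1. The cells were of the U2OS line, which comes from a human osteosarcoma. Affymetrix human gene arrays measured their RNA, and the 9 receptor genes are part of 18417 genes tested. The cells received siRNA against CDK9 (4 arrays) or a non-targeting siRNA (4 arrays), both at 10 nM with the same transfection reagent, and were collected 72 h later. CDK9, the kinase subunit of P-TEFb, lets RNA polymerase II leave its pause near gene starts. The series describes its replicates as biological, and all come from this single cell line. Each receptor gene had 1 probe set with its symbol alone, so no choice between probe sets was needed. The group was chosen by gene family with measured log2 differences of this same comparison known, namely the fall of OLR1 and the rise of VLDLR. Differences between CDK9 siRNA and control siRNA are therefore given for the receptors as a description with their errors. Calls of the receptors come from this same comparison and are no independent test of them. "Called" means past an adjusted p of 0.05 in the limma fit over all genes.

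Lipoprotein receptors bind particles of lipid and apolipoprotein outside the cell and carry them inward through clathrin-coated pits or caveolae. Members of the LDL receptor family (VLDLR, LRP1, LRP8 and, in part, SORL1) share cysteine-rich ligand-binding repeats. Their cytoplasmic tails bind adaptor proteins, and VLDLR and LRP8 also transmit the reelin signal through DAB1. Scavenger receptors have unrelated folds, and many take up oxidised or otherwise modified lipoproteins. OLR1, also called LOX-1, is a C-type lectin best known from endothelium and macrophages, MSR1 is the macrophage class A receptor, and CD36, SCARB1 and SCARB2 form the class B group.

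The 8 arrays fall into an array set 1 (replicate 1 of each group) and an array set 2 (replicates 2 to 4 of each group), which gaps in the array numbers of the labels also set apart. Median log2 expression was 5.85 and 5.80 in array set 1 and 6.99 to 7.04 in array set 2, and the fit held the array set as a block. Without a block, limma called 0 genes over all 8 arrays, with unadjusted p below 0.05 for 28 positive and 23 negative differences. Every call from fits that hold both array sets therefore rests on a block, for the array set or for the replicate number. Array set 2 alone was fitted without a block, and 18.1% of all genes were called there. CDK9 itself was at 28.4% of the control signal (log2 -1.82 ± 0.05 SE, n = 4 per group). Of 8 mesenchymal and osteoblast markers, 7 lay above the lowest 30% of genes (below a log2 value of 6.14, called dim here), among them VIM, SPARC and RUNX2. Of 9 monocyte and macrophage markers measured, CD14, CD163, CSF1R, ITGAM, MRC1 and AIF1 were dim. TYROBP, CD68 and ITGAX were not, with mean log2 values of 7.24, 7.04 and 6.38. The log2 values of these 9 markers summed to 47.1 to 54.6 on the CDK9 siRNA arrays and 45.9 to 55.2 on the control arrays. Of 6 endothelial markers 5 were dim, including PECAM1, CDH5 and VWF, and CLDN5 was not (mean log2 7.33). Dim too were 2 of 3 leukocyte, 4 of 5 adipocyte and 3 of 4 epithelial markers. VIM, COL1A1, RUNX2 and CD68 were called lower after CDK9 siRNA and the dim markers TEK and EPCAM higher, and their part in the receptor results was not tested.

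Of the 9 receptors, 6 matched a table of RefSeq promoters by symbol, and OLR1, SCARB1 and MSR1 did not. VLDLR and LRP8 had a higher signal after CDK9 siRNA and LRP1 a lower one, and the upstream sequences of these relatives are shown for that contrast. The 250 bases before the annotated start of each gene are taken from RefSeq on GRCh38.p14 and run 5′ to 3′ on the gene's own strand. VLDLR lies at chr9:2621537-2621786 (plus strand), LRP8 at chr1:53328071-53328320 (minus strand) and LRP1 at chr12:57128233-57128482 (plus strand). Capitals mark matches, on either strand and with overlaps allowed, to any of 6 motifs that are named in the text after the sequences.
VLDLR: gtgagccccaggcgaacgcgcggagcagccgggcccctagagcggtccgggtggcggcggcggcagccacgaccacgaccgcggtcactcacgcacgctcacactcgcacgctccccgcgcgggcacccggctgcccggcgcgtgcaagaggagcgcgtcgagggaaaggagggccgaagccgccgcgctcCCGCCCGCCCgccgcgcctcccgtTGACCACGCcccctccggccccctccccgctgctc
LRP8: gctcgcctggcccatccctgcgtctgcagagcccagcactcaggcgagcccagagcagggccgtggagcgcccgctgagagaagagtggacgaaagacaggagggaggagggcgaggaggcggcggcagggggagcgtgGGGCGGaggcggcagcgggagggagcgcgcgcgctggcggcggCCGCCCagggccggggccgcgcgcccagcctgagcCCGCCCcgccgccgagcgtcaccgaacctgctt
LRP1: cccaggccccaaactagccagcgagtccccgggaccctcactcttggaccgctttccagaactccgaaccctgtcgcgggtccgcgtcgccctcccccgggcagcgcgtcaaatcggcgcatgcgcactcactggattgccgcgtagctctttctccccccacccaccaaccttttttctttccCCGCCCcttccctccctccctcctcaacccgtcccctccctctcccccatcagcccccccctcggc

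All of these stretches were rich in G and C, at 78.8% in VLDLR, 77.2% in LRP8 and 67.6% in LRP1, against a median of 58.0% over 34943 RefSeq promoter stretches of the same length. They held 41, 31 and 20 CpG dinucleotides in that order, against a median of 11. The GC box, GGGCGG, was found at 2 overlapping positions in VLDLR, 3 in LRP8 and 1 in LRP1, and 42.5% of all stretches hold at least 1. VLDLR also had 1 match to the core of the antioxidant element, TGACNNNGC, at bases -35 to -27 from the start site, which 10.9% of all stretches share. This element was found as well upstream of SORL1 and in a stretch of CD36, neither of which was called. No stretch of the 3 genes matched the CCAAT box, CCAAT (in 32.0% of all stretches), the AP-1 element, TGANTCA (6.59%), the C/EBP-ATF element, TGATGNAA (3.15%), or the hypoxia element, ACGTG (18.5%). These matches describe letters in a window and were not tested for binding.

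In the cells given CDK9 siRNA, the lectin-like scavenger receptor OLR1 and the endocytic receptor LRP1 were lower. LRP8, VLDLR, SCARB2 and SCARB1 were higher, of which SCARB2 and SCARB1 lost their calls when replicate numbers formed the block. The remaining 3 genes, SORL1, CD36 and MSR1, were not called. That is 4 receptors called higher and 2 called lower of 9, against 6.73% and 7.47% of all genes (14.2% in either direction), a comparison from which nothing is read because the same contrast chose the group. The median log2 difference of the 9 receptors was 0.09, and that of all genes was -0.0016.

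OLR1, on chromosome 12, gave log2 values of 4.82, 8.22, 8.25 and 8.31 in replicates 1 to 4 of CDK9 siRNA, against 7.03, 9.69, 9.76 and 9.78 in the controls. Every CDK9 siRNA array lay below the control array of its own set, and within array set 2 the groups were 1.38 apart while the arrays of a group spread over at most 0.09. OLR1 signal stood at 31.6% of control (95% confidence interval 26.4 to 37.8%), a log2 difference of -1.66 ± 0.12 (SE, n = 4 per group). The share was 21.6% for the array set 1 pair and 35.8% over array set 2. The drop in the array set 1 pair was larger than that in array set 2, by -0.73 on the log2 scale (set 1 minus set 2; limma interaction over all genes, adjusted p = 0.0244), in the same direction in both. Array set 1 holds 1 array per group, so this test takes its residual spread from array set 2 and assumes that the lone pair, whose arrays have the lower medians, varies alike. Only under that assumption does this interaction have zero covariance with the pooled difference by which OLR1 was chosen. Of all genes, 2.14% passed it. OLR1 was the only one of the 9 receptors past that test. In RNA of whole cultures, fewer cells with a transcript and less of it per cell cannot be told apart.

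LRP8, on chromosome 1, is a receptor of apolipoprotein E and reelin that acts mainly in the nervous system. Its log2 values were 9.49, 10.10, 10.12 and 10.06 on the CDK9 siRNA arrays and 8.51, 9.55, 9.39 and 9.59 on the control arrays. The array set 2 groups were separated by 0.47, and the array set 1 pair differed in the same direction. LRP8 was 1.61-fold higher (95% confidence interval 1.42 to 1.82), or 0.69 ± 0.08 on the log2 scale (SE, n = 4 per group), which ranks 68 among the positive differences of the whole table. The array set 1 pair differed by 0.99 and array set 2 by 0.59.

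VLDLR, on chromosome 9, is a close relative of LRP8 and takes up triglyceride-rich particles in muscle, fat and heart. It read 7.56, 8.25, 8.47 and 8.43 after CDK9 siRNA, against 7.31, 7.68, 7.77 and 7.86 after control siRNA. All CDK9 siRNA arrays lay above the control arrays of their set. The difference was 1.44-fold (95% confidence interval 1.26 to 1.64), log2 0.52 ± 0.08 (SE, n = 4 per group). The array set 1 pair differed by 0.25 and array set 2 by 0.62. The neighbouring transcript VLDLR-AS1, looked up after the values had been seen, differed by -0.09 ± 0.08 (SE) and was not called (limma adjusted p = 0.543).

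LRP1, on chromosome 12, is a large endocytic receptor of many ligands, among them apolipoprotein E and complexes of proteases with their inhibitors. Its CDK9 siRNA arrays read 7.75, 9.45, 9.28 and 9.45 and its control arrays 8.49, 9.68, 9.83 and 9.85. In array set 2 the groups were 0.24 apart, and the array set 1 pair differed in the same direction. LRP1 stood at 71.7% of control (95% confidence interval 63.4 to 81.1%), log2 -0.48 ± 0.08 (SE, n = 4 per group). Its log2 differences in array sets 1 and 2 were -0.74 and -0.39.

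SORL1, on chromosome 11, is a sorting receptor that retains the amyloid precursor protein in the endosomal recycling route. Its values were 6.28, 8.24, 8.20 and 8.34 on CDK9 siRNA arrays and 6.61, 7.98, 8.03 and 8.08 on control arrays. The array sets went opposite ways, with a log2 difference of -0.33 in set 1 and 0.23 in set 2. The pooled difference was 0.09 ± 0.10 (SE, n = 4 per group) and was not called, although SORL1 was called higher in array set 2 alone. The interaction test, with the same assumption about the lone pair, gave a limma adjusted p of 0.0535, and 0.0334 after a further quantile normalization of all arrays.

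**Figure D1:**
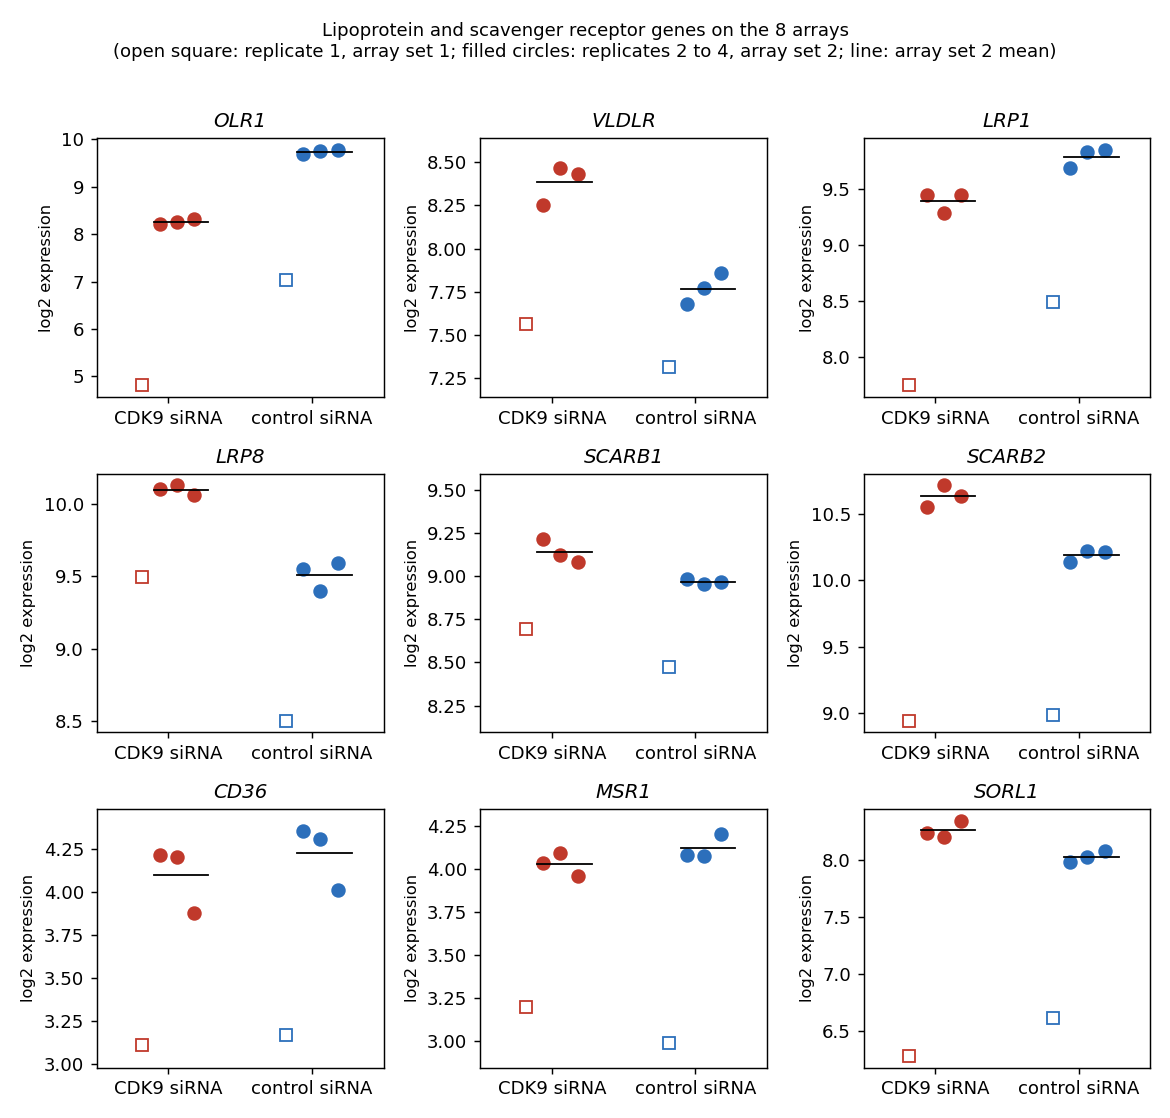
Log2 expression of the 9 receptor genes on each array, with CDK9 siRNA at the left and control siRNA at the right of every panel, open squares for replicate 1 (array set 1), filled circles for replicates 2 to 4 (array set 2) and a line at the array set 2 mean. The vertical axes differ between panels. The OLR1 circles of CDK9 siRNA lie 1.38 below those of the controls, and the CD36 and MSR1 circles of the groups overlap.

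The class B receptors SCARB2 and SCARB1 were called with smaller differences than OLR1, LRP8, VLDLR and LRP1, and neither was called with the replicate block or in most fits that left out 1 array. SCARB2, on chromosome 4, is a lysosomal membrane protein that carries the enzyme glucocerebrosidase to lysosomes. It read 8.95, 10.55, 10.71 and 10.63 after CDK9 siRNA and 8.99, 10.13, 10.22 and 10.21 after control siRNA. The array set 2 groups were 0.33 apart, while the array set 1 pair differed by -0.04. The pooled difference was 0.32 ± 0.09 on the log2 scale (SE, n = 4 per group), or 1.25-fold.

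SCARB1, on chromosome 12, is the HDL receptor through which cholesteryl esters are taken up selectively. Its values were 8.69, 9.22, 9.12 and 9.09 on CDK9 siRNA arrays, against 8.47, 8.99, 8.95 and 8.97 on control arrays. The array set 1 pair and the array set 2 groups differed in the same direction, but the gap in array set 2 was 0.10 and smaller than the spread of 0.13 among the CDK9 siRNA arrays. The difference was 1.14-fold (95% confidence interval 1.05 to 1.23), log2 0.18 ± 0.05 (SE, n = 4 per group).

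CD36 and MSR1, scavenger receptors typical of macrophages, were dim. CD36, on chromosome 7, ranged from 3.11 to 4.21 on CDK9 siRNA arrays and from 3.17 to 4.35 on control arrays. MSR1, on chromosome 8, ranged from 3.20 to 4.09 and from 2.99 to 4.21 in the same order of groups. Their groups overlapped in array set 2. The log2 differences were -0.11 ± 0.10 for CD36 and -0.01 ± 0.07 for MSR1 (SE, n = 4 per group), with 95% confidence intervals of -0.33 to 0.11 and -0.17 to 0.14. At this signal a change in transcript level may not be detectable, so these intervals limit the probe signal only.

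By class, 2 of the 4 members of the LDL receptor family were called higher and 1 lower. Of the 5 scavenger receptors, 2 were called higher and 1 lower. Over all genes, 6.73% were called higher and 7.47% lower. Nothing is read from the counts in this paragraph, because they draw on the contrast that chose the group. In array set 2 the groups did not overlap for 7 of the 9 receptors, against 38.1% of all genes. CDK9 siRNA was higher in 5 (18.7% of all genes) and lower in 2 (19.5%). For 5 of these 7 the array set 1 pair had the same sign, a share near the 66.2% of all genes without overlap in array set 2. Both conditions together held for 5 of the 9 receptors and for 25.3% of all genes. SCARB2 and SORL1 were the exceptions. When replicate numbers formed the block, 2 receptors were called higher (VLDLR and LRP8, against 4.41% of all genes) and 2 lower (OLR1 and LRP1, against 4.75%). In either direction 9.17% of all genes were called, and SCARB1 and SCARB2 were not. Without array set 1, 4 were called higher (9.52% of all genes) and 2 lower (8.57%), against 18.1% in either direction. SORL1 then took the place of SCARB1. Leaving out single arrays, both SCARB1 and SCARB2 lost their calls without replicate 2 or 3 of either group or control replicate 4, and SCARB2 without CDK9 siRNA replicate 4.

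**Figure D2:**
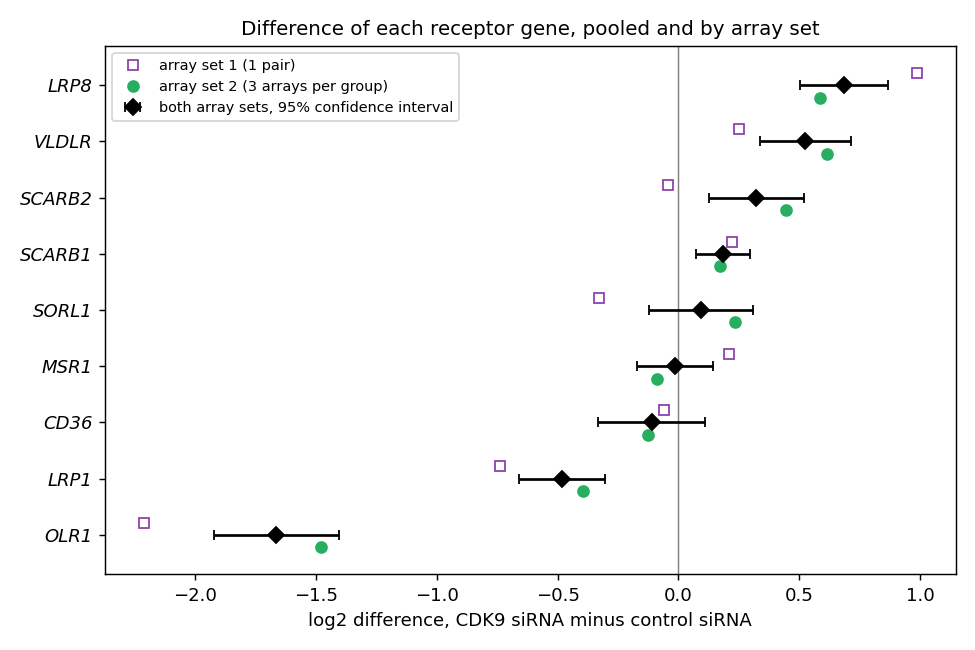
Log2 difference of CDK9 siRNA minus control siRNA for each receptor gene, with the estimate over both array sets and its 95% confidence interval (black), the single pair of array set 1 (open squares) and array set 2 (green circles, 3 arrays per group). OLR1 lies at -1.66 and LRP8 at 0.69, and the 2 array sets lie on opposite sides of 0 for SCARB2, MSR1 and SORL1.

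The genes around these receptors were examined as 7 lists. Of 114 genes listed, 103 were measured with a probe set of their own and the other 11 were not analysed here. Across the lists, 15 genes rose and 15 fell (limma, array set block, adjusted p under 0.05 over all genes). That is 29.1% of those measured against 14.2% of all genes. Nothing is read from this comparison, because the lists were chosen with earlier results of these data known. Dim genes were also fewer in the lists, 16 of 103, against 30% of all genes. The median difference of the 103 genes was -0.02. Of the 25 called genes named in what follows, 9 were not called when replicate numbers formed the block, and that p is given with each. These 9 and MARCO also lost their calls when 1 or another single array was left out.

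Differences of the other receptors lay between -0.35 and 0.37 on the log2 scale. Of 12 further LDL receptor family and sortilin genes, 0 rose and 2 fell, the sorting receptors SORCS2 (-0.21, adjusted p = 0.0373) and SORCS1 (-0.21, adjusted p = 0.0404, dim). Both lost the call with the replicate block (adjusted p = 0.0794 and 0.0933), and neither was called with arrays centred on their medians. The median of this list was 0.0064. Of 13 other scavenger receptors, 2 rose and 2 fell, with a median of -0.04. SCARA3, a class A receptor linked to oxidative stress, rose by 0.37 ± 0.06 (SE, adjusted p = 0.00419), and the macrophage receptor MARCO rose by 0.27 (adjusted p = 0.034, and 0.0828 in array set 2 alone). CXCL16, a membrane-bound chemokine that binds oxidised lipoprotein, fell by 0.35 (adjusted p = 0.026, or 0.0598 under the replicate block). CD68, a lysosomal glycoprotein, fell by 0.31 (adjusted p = 0.0248, or 0.0645 under the replicate block). Array set 1 gave -0.02 and array set 2 gave -0.41.

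Among 18 ligands and apolipoproteins, 2 rose and 3 fell, and the median was -0.03. A2M, the protease inhibitor alpha-2-macroglobulin that LRP1 clears, fell by 1.01 ± 0.10 on the log2 scale (SE, n = 4 per group, adjusted p = 0.000417). Its log2 values were 7.30, 9.44, 8.95 and 9.23 after CDK9 siRNA, against 8.16, 10.27, 10.34 and 10.17 after control siRNA, so each CDK9 siRNA array lay below the control of its own set. PLAU, the protease urokinase, whose inhibitor complexes are taken up by LRP1 and VLDLR, rose by 0.59 ± 0.07 on the log2 scale (SE, adjusted p = 0.000846). LPL, lipoprotein lipase, which hydrolyses triglycerides and bridges particles to VLDLR, rose 1.29-fold (log2 0.36 ± 0.05 SE, adjusted p = 0.00288). GRN, the sortilin ligand progranulin, fell by 0.32 (adjusted p = 0.00321). RELN, the reelin ligand of VLDLR and LRP8, was dim and differed by -0.02 (adjusted p = 0.802).

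The list of receptor trafficking and turnover had 22 measured genes, of which 3 rose and 3 fell (median -0.07). CLTC, the clathrin heavy chain, rose by 0.28 (adjusted p = 0.00486) and the sheddase ADAM17 by 0.24 (adjusted p = 0.0145, or 0.0515 under the replicate block). SNX27, which returns receptors from endosomes to the surface, fell by 0.31 (adjusted p = 0.00774). DAB2, a clathrin adaptor of LDL receptor family tails, fell by 0.31 (adjusted p = 0.0453, or 0.102 under the replicate block). Array set 1 gave -0.71 and array set 2 gave -0.18. LRPAP1, the chaperone of this family, differed by -0.17 (adjusted p = 0.0528). MYLIP, the ubiquitin ligase that directs VLDLR and LRP8 to degradation, differed by -0.16 (adjusted p = 0.197). Of 11 genes of receptor signalling, 1 rose and 1 fell (median -0.10). FYN, the kinase that phosphorylates DAB1, fell by 0.37 (adjusted p = 0.00453). CRKL, an adaptor that binds phosphorylated DAB1, rose by 0.21 (adjusted p = 0.0441, or 0.106 under the replicate block).

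Of 13 regulators described for these receptor genes, 4 rose and 3 fell (median 0.04). NFE2L2, the antioxidant transcription factor NRF2, rose 1.38-fold (log2 0.46 ± 0.05 SE, adjusted p = 0.000676), and PPARA, a regulator of fatty acid oxidation, rose 1.29-fold (adjusted p = 0.00281). PPARG, which induces CD36, fell by 0.41 ± 0.07 (SE, adjusted p = 0.0042), and its partner RXRA fell by 0.28 (adjusted p = 0.0064). ATF4, a factor of the integrated stress response, rose by 0.17 (adjusted p = 0.0421, or 0.0955 under the replicate block), but the mean of its probe sets differed by 0.02 only. SREBF2, the main regulator of cholesterol uptake and synthesis genes, differed by 0.01 (adjusted p = 0.922).

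Among 14 cholesterol and lipid handling genes, 3 rose and 1 fell (median 0.09). CAV1, caveolin, rose by 0.42 (adjusted p = 0.0271, or 0.0709 under the replicate block). Array set 1 gave -0.07 and array set 2 gave 0.59. ACSL4, which activates polyunsaturated fatty acids, rose by 0.35 (adjusted p = 0.017) and SOAT1, which esterifies cholesterol for storage, by 0.29 (adjusted p = 0.00734). PLIN2, a coat protein of lipid droplets, fell by 0.40 (adjusted p = 0.0031).

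**Figure D3:**
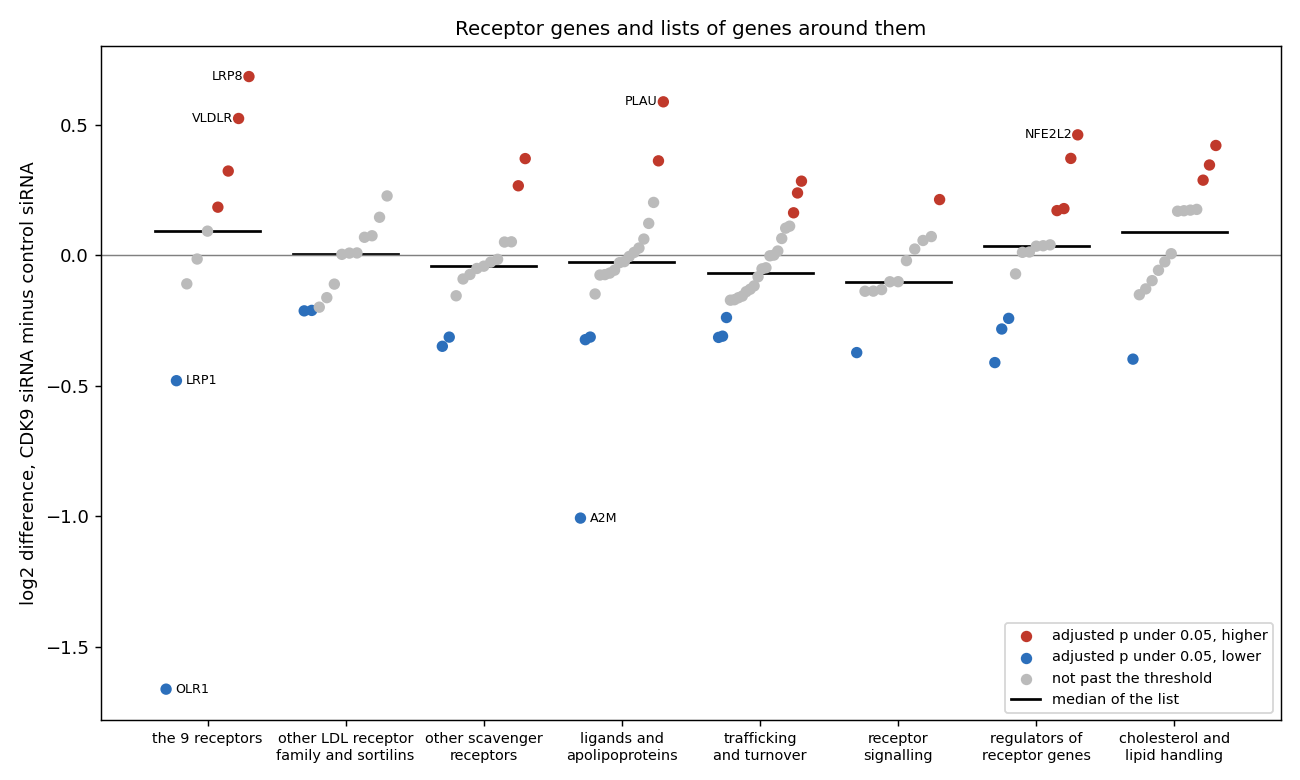
Log2 difference of CDK9 siRNA minus control siRNA for the 9 receptors and for the measured genes of 7 lists around them, 1 point per gene, ordered within each column, with the list's median as a line. Points are red or blue where the adjusted p over all genes was under 0.05 and grey otherwise. A2M at -1.01 and PLAU at 0.59 lie farthest from 0 outside the receptors.

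The genes whose pattern over the 8 arrays was most like that of OLR1 were PGM2L1, PRICKLE1, MYOF, PLXDC2 and the iron exporter SLC40A1. Pearson's r was 0.997 to 0.999 over 8 arrays after each array set had been centred on its own mean, among 86 genes that were not dim and varied at least 50% as much as OLR1. The log2 differences of these genes were -1.08, -0.96, -0.91, -0.90 and -1.41 in that order, and each was larger in size in array set 1 than in array set 2, as for OLR1. For VLDLR the most similar genes were USP16, RMDN1, MCAM, ERAP1 and CNN1, with r of 0.993 to 0.995 among 2770 genes. Their differences lay between 0.25 and 0.43, and each was smaller in array set 1 than in array set 2, as for VLDLR. These correlations are descriptions. All 8 points share the group difference, and the genes were picked as the highest of many. The choice used the array set 1 pair, so it favours genes with the same contrast between array sets, and that likeness is no separate result.

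**Figure D4:**
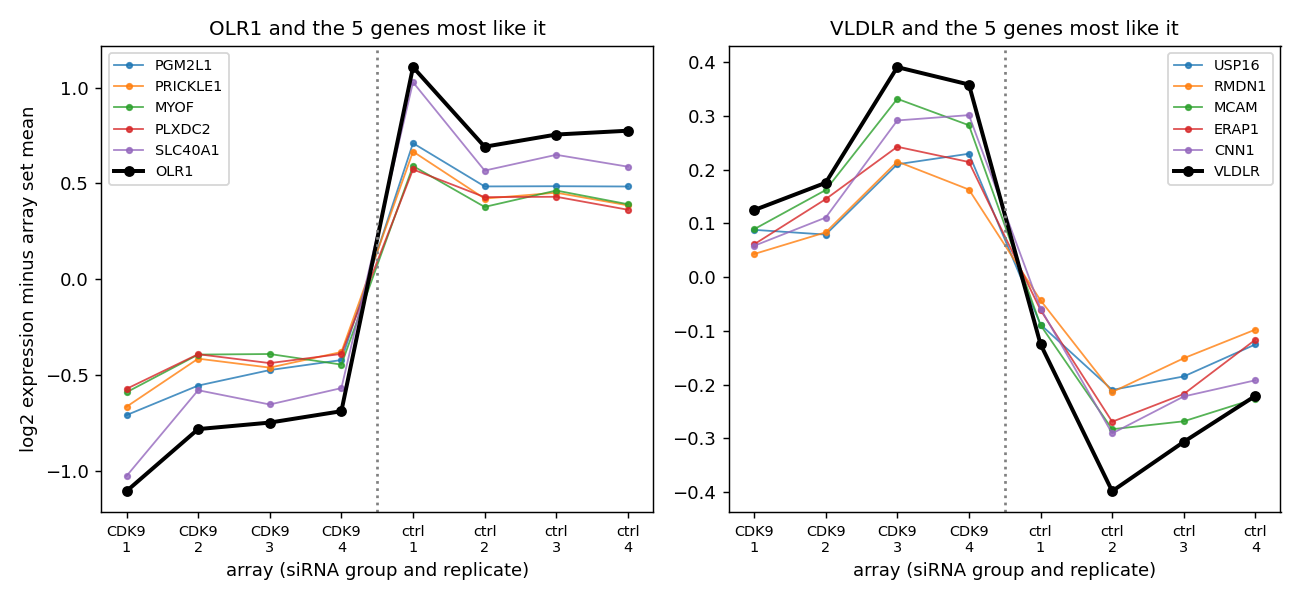
Log2 expression minus the mean of the array set, for OLR1 (left, black) and VLDLR (right, black) with the 5 genes most like each, over the 4 CDK9 siRNA arrays followed by the 4 control (ctrl) arrays. OLR1 and its 5 genes lie below 0 on every CDK9 siRNA array and above 0 on every control array, and VLDLR and its 5 genes lie the other way round.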

How the data were processed

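Log2 expression values of 33297 probe sets on 8 arrays were used as deposited by the authors. The submitters' processing notes name Affymetrix Expression Console 1.1, RMA, limma and hg19 without roles. Which arrays shared a normalization is not stated in the labels used here. A constant offset between the array sets would cancel in differences within a set, but the gap was not the same for every gene. With control siRNA, OLR1 read 7.03 in array set 1 and averaged 9.74 in array set 2, and LRP8 8.51 and 9.51. Whether this affects differences within a set was not tested. Probe sets with 1 symbol in the platform annotation (19460) were kept, the one with the highest mean per gene, which left 18417 genes.

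Tests used lmFit and eBayes of limma 3.58.1 (R 4.3.3), two-sided, with a block for the array set, and p-values were Benjamini-Hochberg adjusted over all genes. The script was tested on simulated data. Summaries were made with numpy 2.4.6 and pandas 2.3.3 in Python 3.11.15, and plots with matplotlib 3.10.9. Arrays have no read depth: precision is limited by their number. The receptors, lists, motifs and the array set block were chosen with earlier results of these data known. From each list, called genes were named (the 4 largest where more were called) with 6 close partners of the receptors, and for OLR1 and VLDLR the 5 genes of highest correlation.

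Replicate numbers recur in both groups. Deviations from group means correlated within same-numbered pairs at 0.822, 0.537, 0.494 and 0.607. The limit for treating the numbers as pairs was 0.1. These values include the difference between array sets, so they cannot decide on pairing. Within array set 2 they were lower, at 0.108 and 0.17 for replicates 2 and 4, above that limit, and -0.011 for replicate 3, below it. The main fit did not pair arrays within array set 2, and results with the replicate block are given beside it. Alternatives were no block, the replicate block, array set 2 alone, other scalings, probe set and dim-gene rules, another variance prior, and leaving out each array.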

Additional observations from a re-analysis of the deposited data

Results flagged for a closer look

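Among 18 checks of the receptors' log2 values (9 genes in each group of 4 arrays), 12 had 1 array far from the other 3, and it was replicate 1, the lowest, each time. The gap to the nearest array, as a share of the whole range, was 0.973 and 0.97 for OLR1 after CDK9 siRNA and control siRNA, 0.902 and 0.88 for LRP1, 0.909 and 0.931 for SCARB2, 0.855 and 0.891 for MSR1 and 0.933 and 0.931 for SORL1. It was 0.9 for LRP8 after CDK9 siRNA and 0.935 for SCARB1 after control siRNA. Each lies above Dixon's critical value for 4 arrays, which chance passes in about 1 of 20 groups. Replicate 1 of both groups forms array set 1, whose arrays have the lower medians.

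Differences in the single array set 1 pair and in array set 2 stood apart by the limma interaction test (set 1 minus set 2) for OLR1 (-0.73, adjusted p = 0.0244), CAV1 (-0.66, adjusted p = 0.0259) and DAB2 (-0.53, adjusted p = 0.0345). For CAV1 the 2 array sets had opposite signs. The residual spread of this test comes from array set 2 alone, and that of a single pair cannot be estimated.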

How the results depend on the processing

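The log2 differences of the 9 receptors moved by less than the spread between arrays under every alternative run. Many of these alternatives could not move them. The other block choices, the variance prior and the probe set and dim-gene rules leave such a difference unchanged by design. Leaving out replicate 1 of either group gives the same difference as array set 2 alone. Ranges over left-out arrays were -1.71 to -1.48 for OLR1, 0.59 to 0.73 for LRP8, 0.48 to 0.62 for VLDLR and -0.53 to -0.39 for LRP1. Without a block, limma called 0 genes in either direction and thus 0 receptors higher and 0 lower, with a smallest adjusted p of 0.103 while 28 genes higher and 23 lower had an unadjusted p under 0.05. The array set difference enters the residual there. With the replicate block, 813 genes were called higher and 875 lower, against 1239 and 1376 with the array set block, and 2 receptors were higher and 2 lower, against 4 and 2. The log2 differences are the same under both blocks, so the calls differ only through the errors and the adjusted p that follow from them. Leaving out 1 array gave 714 to 1753 genes higher and 806 to 1578 lower, and 2 to 4 receptors higher and 2 lower. SCARB1 and SCARB2 were both lost without replicate 2 or 3 of either group or control replicate 4, which left 2 receptors called higher. Without CDK9 siRNA replicate 4, SCARB2 alone was lost, and without replicate 1 of either group SCARB1 was lost and SORL1 called. With arrays centred on their medians SCARB2 was not called, leaving 3 receptors higher. The OLR1 interaction, which rests on the single pair of array set 1, was -0.69 after a further quantile normalization (adjusted p = 0.0216), a rescaling that adds nothing on the spread of that pair. Of the 25 called list genes named, 15 were called under every alternative except the fit without a block. SREBF2, which was not called, changed sign in array set 2 alone (-0.0091) and ranged from -0.021 to 0.037 over left-out arrays. Of the 5 genes most like OLR1 and the 5 most like VLDLR, 2 each were again among the closest 5 in array set 2 alone. With 4 arrays per group and a single pair in array set 1, changes of the size of SCARB1 lie near the limit of what the fit calls.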
